A study of Danio rerio with 28 samples.

Results

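Zebrafish embryos exposed to 17β-estradiol (E2) were compared with vehicle-exposed embryos at 1 day post fertilization (dpf), the earliest of the 4 stages on the arrays. The comparison rests on 6 of the 28 arrays of the series, chosen by their titles as all arrays of 1 dpf, with 3 DMSO and 3 E2 pools. Each pool held 30 whole wild-type DZ embryos that entered medium with 1 µM E2, or with the 0.1% DMSO in which E2 was dissolved, at about 3 hours post fertilization (hpf) and were collected at 24 hpf. Clutches from several breeding pairs were divided into these pools, and replicates came from different batches of embryos, and p-values rest on the spread that was left within groups after the replicate number was fitted, pooled over all 28 arrays. DMSO and E2 pools of the same replicate number were described as pairs, because they deviated together from their group means. The fit held 1 effect per replicate number, shared by the 4 stages, so that its p-values are not those of a paired test within 1 dpf. Untreated embryos were not part of this comparison, and all 6 pools carried DMSO.

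Estradiol acts mainly through nuclear estrogen receptors, ligand-activated transcription factors that zebrafish encode in esr1, esr2a and esr2b. In fish liver, the receptors drive vitellogenins, the egg yolk precursor proteins, and in radial glia of the brain they drive cyp19a1b, the aromatase that makes estrogen from androgen. At 24 hpf the zebrafish embryo is completing its somites, its lens and first muscle fibres are differentiating, and it has no functional liver yet.

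The arrays carried 43603 different probes, and 15721 of them could be given the names of 10986 genes. A probe counts as above background where the scanner software marked its spot as well above the local background. This was the case on all 3 arrays of at least 1 group for 27972 probes (64.2%), on which the results below are weighted. Levels are normalized log2 signals of 1 probe, and levels of different probes cannot be set against each other. Between 58.7% (E2 replicate 2) and 71.1% (E2 replicate 3) of the spots of an array were above background, the other 4 arrays lying between 67.8% and 68.6%. Both arrays of pair 1 shared slide and scan batch, as did both arrays of pair 3, whereas the DMSO and the E2 array of pair 2 lay on different slides scanned in different batches. Spearman correlation across probes within a pair was 0.987 for pair 1, 0.985 for pair 3 and 0.968 for pair 2. Markers of several single tissues were above background. These were 5 of 5 measured hatching gland genes, 20 of 22 erythroid genes, 12 of 12 notochord and floor plate genes and 15 of 16 neural crest and pigment genes. Among all named genes this held for 9478 of 10986, so these counts do not set the tissues apart. Fewer were above background among lens genes (15 of 26), opsin and phototransduction genes (9 of 27) and pituitary and neuropeptide genes (10 of 28). Genes that change from 1 to 2 dpf placed both replicate 1 pools earlier than the mean of DMSO replicates 2 and 3. They placed E2 replicate 2 earlier than DMSO replicate 2, as described with the lens and muscle genes.

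Few probes separated E2 from DMSO embryos at 1 dpf, and the clearest of them belonged to vtg1. Of the 27972 probes above background, 23 (0.0822%) passed both thresholds that the study used, an unadjusted p of at most 0.01 and a fold change of at least 1.4, and 7 of these were higher and 16 lower with E2. This filter also takes probes that were above background in DMSO alone. Of the 25256 probes above background on all 6 arrays, 6 (0.0238%) passed, 4 higher and 2 lower. Over all 43603 probes the thresholds were passed by 177 (0.406%), by 87 probes (0.2%) as higher and by 90 (0.206%) as lower with E2, and of the 177, 154 were not above background throughout either group and 91 on none of the 6 arrays. No probe had an adjusted p under 0.05 in limma (Benjamini-Hochberg over all probes), and 790 probes (1.81%) had an unadjusted p under 0.05. Evenly spread p-values would put 2180 probes under 0.05. At 0.01 or below they would put 436 of all probes and 280 of those above background, where limma gave 180 and 25. A call by the study thresholds alone therefore does not show a change. The count of 177 was 344 without DMSO replicate 1, 338 without E2 replicate 1 and 605 without E2 replicate 3, and the adjusted limit was passed by 1 to 21 probes when single pools were left out. The count was 280 without E2 replicate 1 of 3 dpf. That array had 96.1% of its spots above background, against 58.1% to 73.8% on the other arrays of the series. It enters the pooled spread behind the SEs and p-values of 1 dpf. Precision differed with brightness, the median standard error (SE) of a log2 change being 0.23 for probes above background and 0.51 for the others. The 95% interval of the change lay inside ±1 on the log2 scale for 77.4% of the probes above background and inside ±2 for 97.8% of them. For the dimmer probes, 23.9% had an interval inside ±1.

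Vitellogenin 1 (vtg1) was higher with E2 on each of its 4 probes and in every pair. The main probe of vtg1 (A_15_P138796), the brightest of its 4, gave 4.19, 4.80 and 4.09 with DMSO and 4.89, 5.97 and 5.78 with E2, in the order of replicates 1 to 3. All 3 E2 pools lay above all 3 DMSO pools, which held for 2.59% of all probes in either direction. The difference was 1.19 (SE 0.29), or 2.27-fold, with an interval from 0.57 to 1.80 and an unadjusted p of 0.000677 (limma, adjusted p 1). Of the other 3 probes of vtg1, A_15_P177026 gave 3.49, 4.74 and 3.49 with DMSO and 4.59, 5.96 and 5.30 with E2. A_15_P110740 gave 2.54, 4.56 and 3.11 with DMSO, above background on 1 of these arrays, and 4.29, 5.60 and 5.36 with E2. A_15_P106680 gave 3.21, 3.5 and 2.75 with DMSO and 4.30, 4.26 and 4.40 with E2. Their E2 minus DMSO differences were 1.38 (SE 0.35), 1.68 (SE 0.40) and 1.16 (SE 0.52), the last one not past the study thresholds, and the 4 probes read 1 transcript on the same pools and are not independent. Within the pairs that shared a slide, the main probe of vtg1 differed by 0.69 (pair 1) and 1.70 (pair 3), and within pair 2 by 1.16. Without E2 replicate 3 the difference was 0.86 and just missed the p threshold (0.0101), and with a normexp background correction it was 0.42 (p 0.0539).

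The other vitellogenins were split between a dim probe that was higher with E2 and probes that were not called. For vtg3, DMSO pools gave 0.71, 0.82 and 0.73, none above background, and E2 pools gave 1.90, 4.06 and 2.83, of which 1 was above background. The vtg3 probe passed the study thresholds, but its E2 mean of 2.93 did not exceed the mean, over the DMSO arrays, of the lowest signal above background on each, so that no fold change is given, and the second vtg3 probe stayed between 0.35 and 0.53 on all 6 arrays. For vtg5, a bright probe, DMSO pools gave 7.51, 7.42 and 7.16 and E2 pools 7.85, 7.68 and 6.57. The vtg5 groups overlapped, and the interval of the difference ran from -0.62 to 0.62. Probes of vtg2 and vtg4 were above background on none of the 6 arrays. In all, 2 of 5 measured vitellogenin genes were called by the study thresholds, both higher, against 59 of the 10986 named genes (0.537%). Probes of vtg1 and vtg3 had their names from the study's own list of E2-altered probes, so that this share is not independent of the study.

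**Figure D1:**
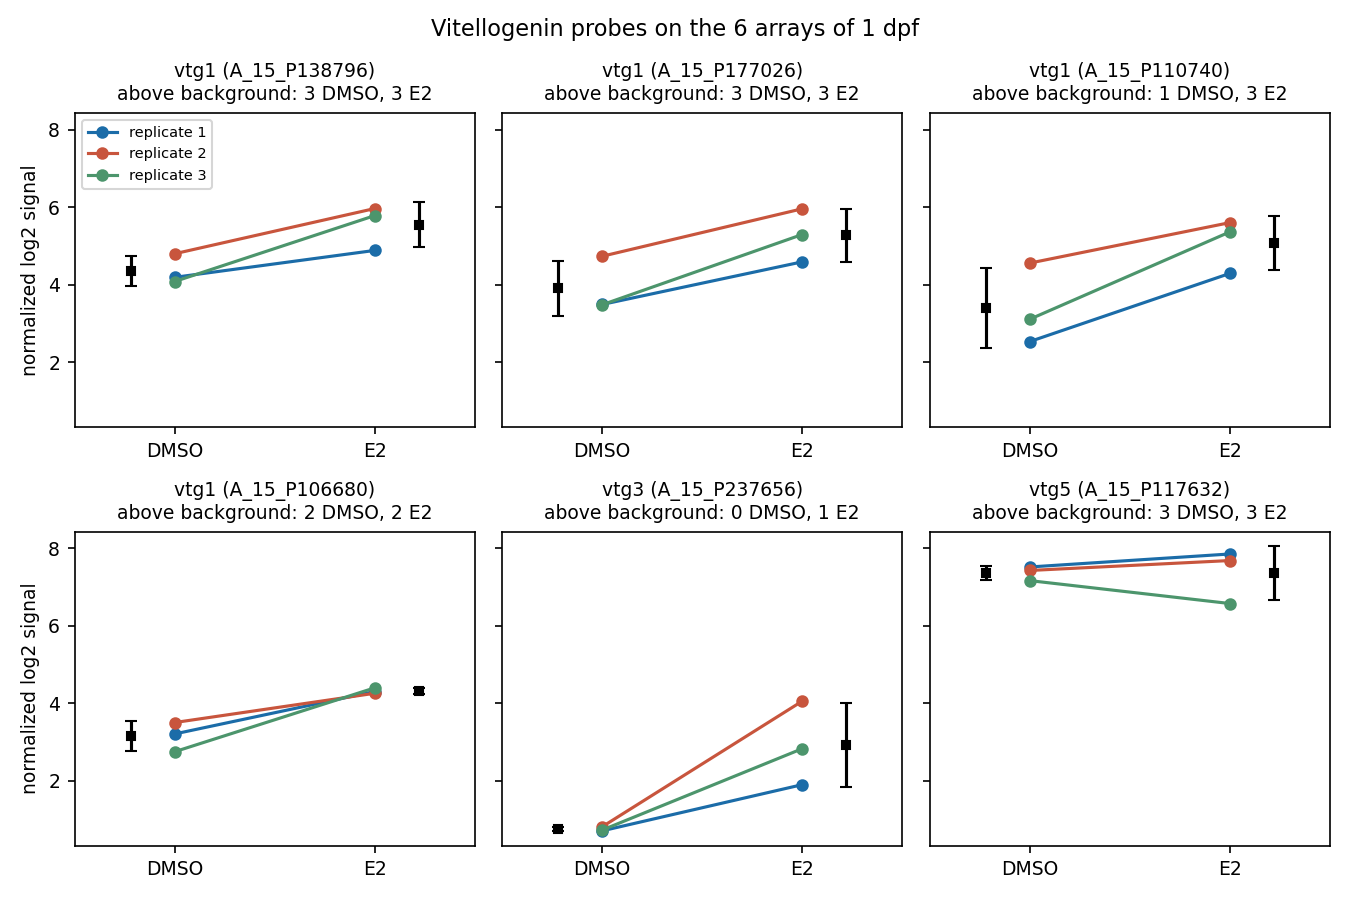
Normalized log2 signal (vertical axis) of the 4 vtg1 probes, the brighter vtg3 probe and vtg5 on the DMSO and E2 arrays of 1 dpf. Lines join the pools of a pair and black squares give the mean ± SD (n = 3). The 4 vtg1 probes were higher with E2 in all 3 pairs, vtg3 started from background in DMSO, and vtg5 had 2 pairs higher and 1 lower.

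No gene of the estrogen response outside the vitellogenins passed the thresholds, 0 of 12, against 0.537% of all named genes. Probes of 6 of them were above background. Aromatase B, cyp19a1b, gave 3.40, 3.67 and 3.93 with DMSO and 4.51, 4.39 and 4.01 with E2 on its brightest probe. The E2 pools lay above the DMSO pools, but the spread of this probe over the series gave an SE of 0.57 to the difference of 0.64 (p 0.279), and of its 4 other probes 3 were lower with E2 and 1 higher, all near background. The receptor esr2b gave 5.37, 5.27 and 4.69 with DMSO and 5.60, 5.46 and 4.48 with E2, a difference of 0.07 (interval -0.53 to 0.67). The receptor esr2a gave 3.90, 6.2 and 3.94 with DMSO and 4.45, 4.65 and 4.00 with E2, and the DMSO pool of replicate 2 stood alone. The receptor esr1 was above background on 2 of 3 arrays in each group, and its E2 replicate 2 at 0.63 lay far below the other 5 arrays, which spanned 2.61 to 3.54. With that pool in the fit, the difference of esr1 was -0.59 (interval -1.69 to 0.51), and without it 0.13.

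Among the brighter genes of that list, greb1, whose human counterpart is an estrogen-induced gene of breast cancer cells, had groups that just did not overlap. It gave 12.61, 12.87 and 12.83 with DMSO and 12.92, 13.31 and 12.87 with E2, with 3 of 3 pairs higher and a difference of 0.26 (SE 0.19, p 0.172). The hormone gene amh gave 4.98, 4.06 and 4.02 with DMSO and 5.10, 5.11 and 4.55 with E2, a difference of 0.57 (SE 0.45), again higher in 3 of 3 pairs. The androgen receptor, ar, stayed between 6.96 and 7.48 on all 6 arrays, and its interval ran from -0.27 to 0.29. The lysosomal protease gene ctsd stayed between 12.96 and 13.60 with an interval from -0.44 to 0.17. The lowest change of the list was that of the sex hormone binding globulin gene shbg, -0.75 (SE 0.54), on a dim probe with 0.80, 3.05 and 3.24 for DMSO and 1.51, 0.53 and 2.80 for E2. For scale, 19.8% of all probes had 1 sign in 3 of 3 pairs.

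The rule for naming genes took those above background in at least 1 group that passed both study thresholds on their brightest probe with 1 sign in all 3 pairs. It gave 10 genes, vtg1 as the only higher one and 9 lower ones. Their adjusted p was 1 in limma for all 10, and for 8 of them not every E2 array was above background. These 8 were lower genes that met the rule through their DMSO arrays, so the split into 1 higher and 9 lower genes is no result on direction. The genes vtg1, psme4a, efna3a, LOC558490, nr1h5 and mhc2dga had their names from the study's own list of E2-altered probes. In 6 of the 10 the groups did not overlap, against 2.59% of all probes. The rule itself favours genes with separated groups, so that this count is no result on these genes. All 10 kept their sign in 19 of 19 alternative analyses, but vtg1 passed the thresholds in 17 of them, efna3a in 15, mhc2dga in 14, epd and nr1h5 in 12, psme4a and LOC558490 in 11, ptprdb and dcun1d4 in 9 and foxl1 in 8. Part of this was fixed in advance, because the rule already asked for 1 sign in all 3 pairs. The background filters left the unadjusted p-values as they were, and the unmoderated analysis of variance left the differences as they were. With normexp the differences were smaller, at -0.53 for epd, -0.24 for nr1h5, -0.12 for dcun1d4, -0.28 for ptprdb, -0.15 for psme4a, -0.58 for LOC558490 and -0.34 for foxl1, and of these epd and LOC558490 still passed.

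The lower gene measured most evenly was foxl1, a forkhead transcription factor of the gut mesenchyme in mammals. It gave 6.38, 6.67 and 6.13 with DMSO and 6.03, 5.63 and 5.99 with E2, above background throughout. The E2 pools were all below the DMSO pools, by 0.51 (SE 0.17), and the second probe of foxl1 gave a difference of -0.28 (SE 0.16). The first probe no longer passed without DMSO replicate 2 (-0.36), E2 replicate 1 (-0.53) or E2 replicate 2 (-0.36), and without replicate 2 of both groups it differed by -0.25.

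Ependymin, epd, a secreted glycoprotein of the fish brain and meninges, gave 5.34, 6.00 and 4.76 with DMSO and 4.95, 3.92 and 3.40 with E2. It was lower in 3 of 3 pairs by 1.28 (SE 0.41), or 2.43-fold, with the lowest E2 array not above background. The group ranges overlapped through E2 replicate 1. With the slide as a block in place of the replicate the difference was -0.87 and missed the p threshold (p 0.0227). It also missed that threshold without DMSO replicate 1 (-1.36), DMSO replicate 2 (-0.99), E2 replicate 2 (-1.11) or E2 replicate 3 (-1.02).

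In each of the remaining 7 lower genes, as in epd, at least 1 E2 array was not above background. The ephrin gene efna3a, a membrane ligand of Eph receptors in axon guidance, gave 3.77, 3.90 and 3.5 with DMSO and 2.21, 2.76 and 3.49 with E2, of which 1 was above background. Its difference of -0.90 (SE 0.22) came from pairs 1 and 2, while pair 3 differed by -0.01. With normexp it was -0.15, and without DMSO replicate 1 it was -0.67 and just missed the p threshold (0.0104). The receptor phosphatase gene ptprdb gave 4.02, 4.70 and 5.64 with DMSO and 3.57, 3.58 and 4.66 with E2, with overlapping groups and a difference of -0.85 (SE 0.28), which missed the p threshold without DMSO replicate 1 or 2 (-0.88 and -0.72) and without E2 replicate 2 or 3 (-0.83 and -0.67). From 1 to 2 dpf the DMSO level of efna3a differed by 2.42 and that of ptprdb by 2.04.

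In 2 of the lower genes, a single E2 pool carried most of the difference. The nuclear receptor gene nr1h5, a relative of the bile acid receptor, gave 5.10, 4.60 and 4.23 with DMSO and 3.85, 0.76 and 3.78 with E2. The groups of nr1h5 did not overlap, and the difference was -1.85 (SE 0.58), with E2 replicate 2 far below the other E2 pools. It was -0.79 without that pool, -1.58 without DMSO replicate 1 and -1.77 without DMSO replicate 2, and passed the thresholds in none of these. The cullin neddylation gene dcun1d4 gave 3.29, 3.81 and 3.65 with DMSO and 2.75, 0.57 and 3.26 with E2, a difference of -1.39 (SE 0.45), again lowest in E2 replicate 2. It was -0.60 without that pool, -1.12 without DMSO replicate 2 and -1.47 without DMSO replicate 3, and missed the p threshold each time.

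The opposite case was LOC558490, in which 1 DMSO pool stood apart, with 7.06, 4.13 and 4.12 for DMSO and 3.87, 3.42 and 3.79 for E2. Its difference of -1.41 (SE 0.45) was -0.46 without DMSO replicate 1, and missed the p threshold also without E2 replicate 1 (-1.34) or E2 replicate 2 (-1.36). The proteasome activator gene psme4a gave 3.09, 3.57 and 3.53 with DMSO and 1.59, 3.43 and 2.84 with E2, a difference of -0.78 (SE 0.25). That call was lost without DMSO replicate 1 (-0.61), DMSO replicate 2 (-0.82), E2 replicate 1 (-0.53) or E2 replicate 3 (-0.70). For mhc2dga, a class II histocompatibility gene, DMSO pools gave 4.14, 4.77 and 3.90 and E2 pools 0.69, 4.40 and 0.55, none of the E2 arrays being above background. Between group means, the bound for mhc2dga was at least 1.93-fold lower with E2 (adjusted p 1, limma). It was taken as the DMSO mean against, on each E2 array, the higher of the probe's own signal and the lowest signal that was above background. The groups overlapped through E2 replicate 2, and pair 2 differed by -0.36. This gene met the rule through its DMSO arrays alone, so that the bound only describes the values that chose it. Leaving out DMSO replicate 3 or E2 replicate 1 ended the call of mhc2dga, at an unadjusted p of 0.013 or 0.0133, and with normexp the difference was -0.35, smaller than the bound.

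**Figure D2:**
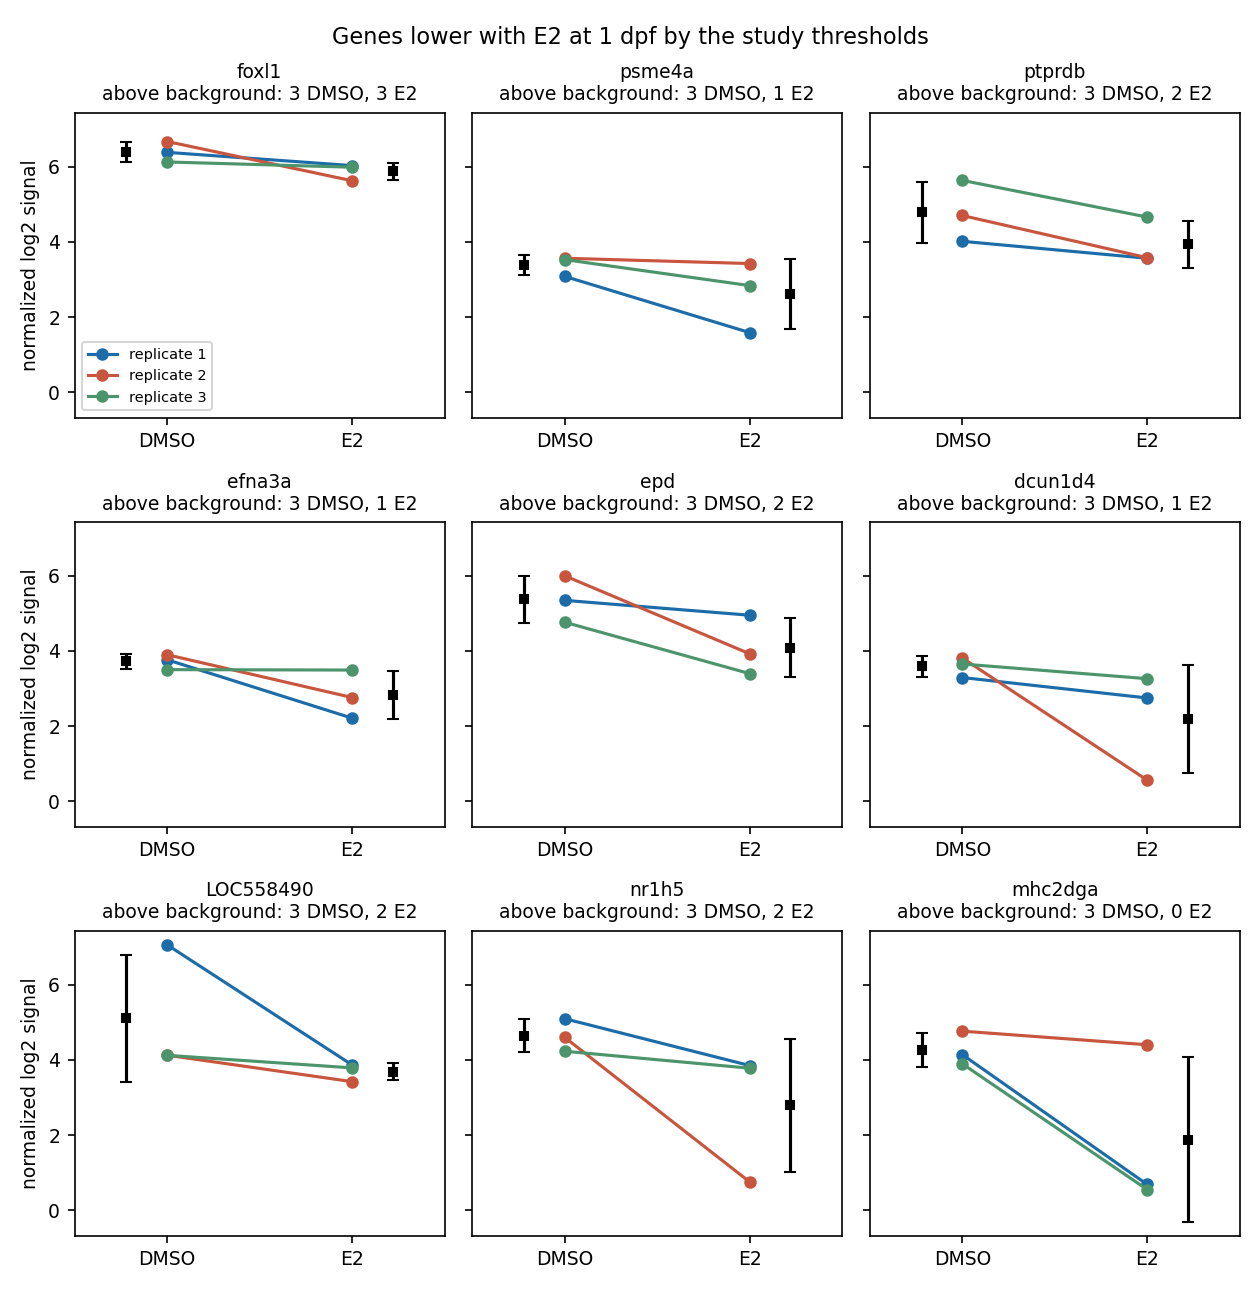
Normalized log2 signal (vertical axis) of the 9 genes that were lower with E2 by both study thresholds and in 3 of 3 pairs, with lines joining the pools of a pair and black squares giving the mean ± SD (n = 3). The panel titles give the number of arrays above background. Only foxl1 had all E2 arrays above background, and E2 replicate 2 was the lowest array of nr1h5 and dcun1d4.

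In the 5 lists of neural and sensory genes described here, each gene read by its brightest probe, the genes that passed did so on dim probes, apart from epd. Of 29 measured genes of neuronal differentiation 4 passed, 1 higher and 3 lower, of 11 glutamate receptor genes 1, of 12 genes of monoamine synthesis and transport 1, of 27 opsin and phototransduction genes 1, and of 9 GABA and glycine receptor genes 0, against 0.537% of all named genes. The AMPA receptor subunit gria2a gave 1.75, 2.68 and 3.18 with DMSO and 0.42, 0.42 and 3.05 with E2, above background on 1 array in each group. Its second probe went the other way, by 0.37. The potassium channel subunit dpp6b gave 3.37, 2.47 and 2.75 with DMSO and 0.43, 0.58 and 2.67 with E2, equally above background on 1 array in each group. In both genes, replicate 3 showed almost no difference.

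Further dim probes differed without a fold that can be given. The aromatic amino acid decarboxylase gene ddc gave 4.66, 1.74 and 2.17 with DMSO and 0.51, 0.35 and 1.59 with E2, above background on 1 DMSO array alone, and its other probe was at background on all 6. The red cone opsin gene opn1lw2 gave 0.68, 5.41 and 3.15 with DMSO, 2 of them above background, and 0.69, 0.57 and 0.93 with E2. The protein phosphatase inhibitor gene ppp1r1c gave 0.36, 0.37 and 0.35 with DMSO and 2.38, 0.53 and 2.44 with E2, none of them above background. Genes that the study itself had picked from these arrays are no independent evidence. They include gria2a, dpp6b, ddc, opn1lw2 and ppp1r1c above, and of the 47 measured here those called higher include dcaf13. It gave 1.61, 0.39 and 0.56 with DMSO and 2.33, 2.70 and 5.04 with E2, with E2 replicate 3 alone above background, and its difference with normexp was 0.26.

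Markers of blood, vessels, axis and skin, each read by its brightest probe, did not pass the thresholds in any list. These were 0 of 22 erythroid genes, 0 of 13 endothelial and haemogenic genes, 0 of 12 notochord and floor plate genes, 0 of 16 neural crest and pigment genes, 0 of 21 ionocyte and epidermis genes and 0 of 5 hatching gland genes. The hatching enzyme he1.2 gave 13.74, 14.61 and 14.41 with DMSO and 13.85, 13.95 and 14.34 with E2. The erythroid nuclear protein gene hemgn gave 7.83, 9.15 and 9.22 with DMSO and 7.47, 8.43 and 8.96 with E2, the lowest difference among the erythroid genes (-0.45, interval -1.21 to 0.31). List medians lay between -0.16 (neural crest and pigment) and 0.04 (endothelium), against 0.01 for all named genes. Of 24 myeloid and immune genes 2 passed, nitr3d and the antiviral GTPase gene mxb, both lower and both on dim probes, against 0.537% of all named genes. The median of that list was 0.01, and 2 of its genes were higher and 2 lower in 3 of 3 pairs. Its highest change, 1.31 for ptprc, did not pass. For mxb, DMSO pools gave 2.33, 2.94 and 2.08 and E2 pools 0.50, 0.71 and 1.96, with no array above background (limma, adjusted p 0.402).

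Endodermal and metabolic genes were likewise not called. The share called among all named genes was 0.537%, so that 0 calls in lists of this size are no result on these tissues. Of 23 genes of liver and yolk syncytial layer, the layer that takes up yolk before the liver works, 0 passed. In 3 of 3 pairs, 5 of these genes were lower and 0 higher, against 8.91% and 10.9% of all probes. Genes of a list share the pools and are not independent. The apolipoprotein gene apoea was the lowest of them, with 9.04, 9.55 and 9.58 for DMSO and 8.45, 7.96 and 8.85 for E2. The groups of apoea did not overlap, by a difference of -0.97 (SE 0.37) with an unadjusted p of 0.016, just short of the study threshold. The glucagon gene gcga gave 6.07, 5.33 and 5.68 with DMSO and 6.64, 5.98 and 5.98 with E2, higher in 3 of 3 pairs by 0.51 (SE 0.22), with overlapping groups. None of the 27 genes of pancreas, intestine and pronephros, 28 of pituitary and neuropeptides or 13 of germ cells passed. The lowest change of the first list, -1.96 (SE 0.96) for the chymotrypsinogen gene ctrb.1, came from 1 DMSO array at 7.18, the other 5 lying between 0.86 and 1.28. The lowest of the second list, -1.78 (SE 0.75) for the receptor gene npy7r, came from a dim probe with 2.70, 2.1 and 5.57 for DMSO and 2.05, 0.63 and 2.35 for E2. None of 39 genes of xenobiotic and steroid metabolism and none of 38 stress genes passed. Among the stress genes, the transcription factor gene atf3 gave 7.86, 8.37 and 7.73 with DMSO and 7.32, 7.48 and 7.40 with E2, separated groups with a difference of -0.59 (SE 0.31, p 0.0692).

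The lists of regulators of growth and pattern had medians close to 0. All 32 measured genes of neural progenitors and Notch signalling were above background, 0 passed, and their median was -0.02. The progenitor factor sox2 stayed between 12.07 and 12.47 on all 6 arrays, with an interval from -0.32 to 0.39. The proneural gene neurog1 stayed between 10.26 and 10.61, with an interval from -0.33 to 0.48. The receptor gene notch3 was less even, with 8.42, 6.97 and 6.56 for DMSO and 8.56, 5.10 and 6.69 for E2 and a difference of -0.53 (SE 0.90). Of 29 genes of DNA replication and mitosis 0 passed, with a median of -0.01 and the highest change in the licensing factor gene cdt1 (0.60, SE 0.50). Of 31 glucocorticoid and clock genes 0 passed, with a median of 0.01 and the highest change in npas2 (0.60, SE 0.42). Among 38 Hox genes, which give the trunk and tail their position along the axis, 10 were higher and 0 lower in 3 of 3 pairs, against 10.9% and 8.91% of all probes, with a median of 0.08. The one Hox gene called was hoxd12a, a dim probe with 2.78, 0.53 and 0.72 for DMSO and 3.1, 3.65 and 1.84 for E2, 1 of them above background. A better measured member was hoxa13b, with 5.57, 5.81 and 5.77 for DMSO and 5.79, 6.29 and 5.92 for E2 and an interval of the difference from -0.25 to 0.82. Over the 28 lists other than those taken from the study, 12 of 599 genes passed, against 0.537% of all named genes. Of these 12, vtg1 and epd were above background in at least 1 group, and 20 lists had no gene that passed. The lists were chosen with earlier results known. Most of the 12, among them vtg1, vtg3, ddc and epd, were named at 1 dpf by the study from these same arrays. The share is therefore no independent excess.

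**Figure D3:**
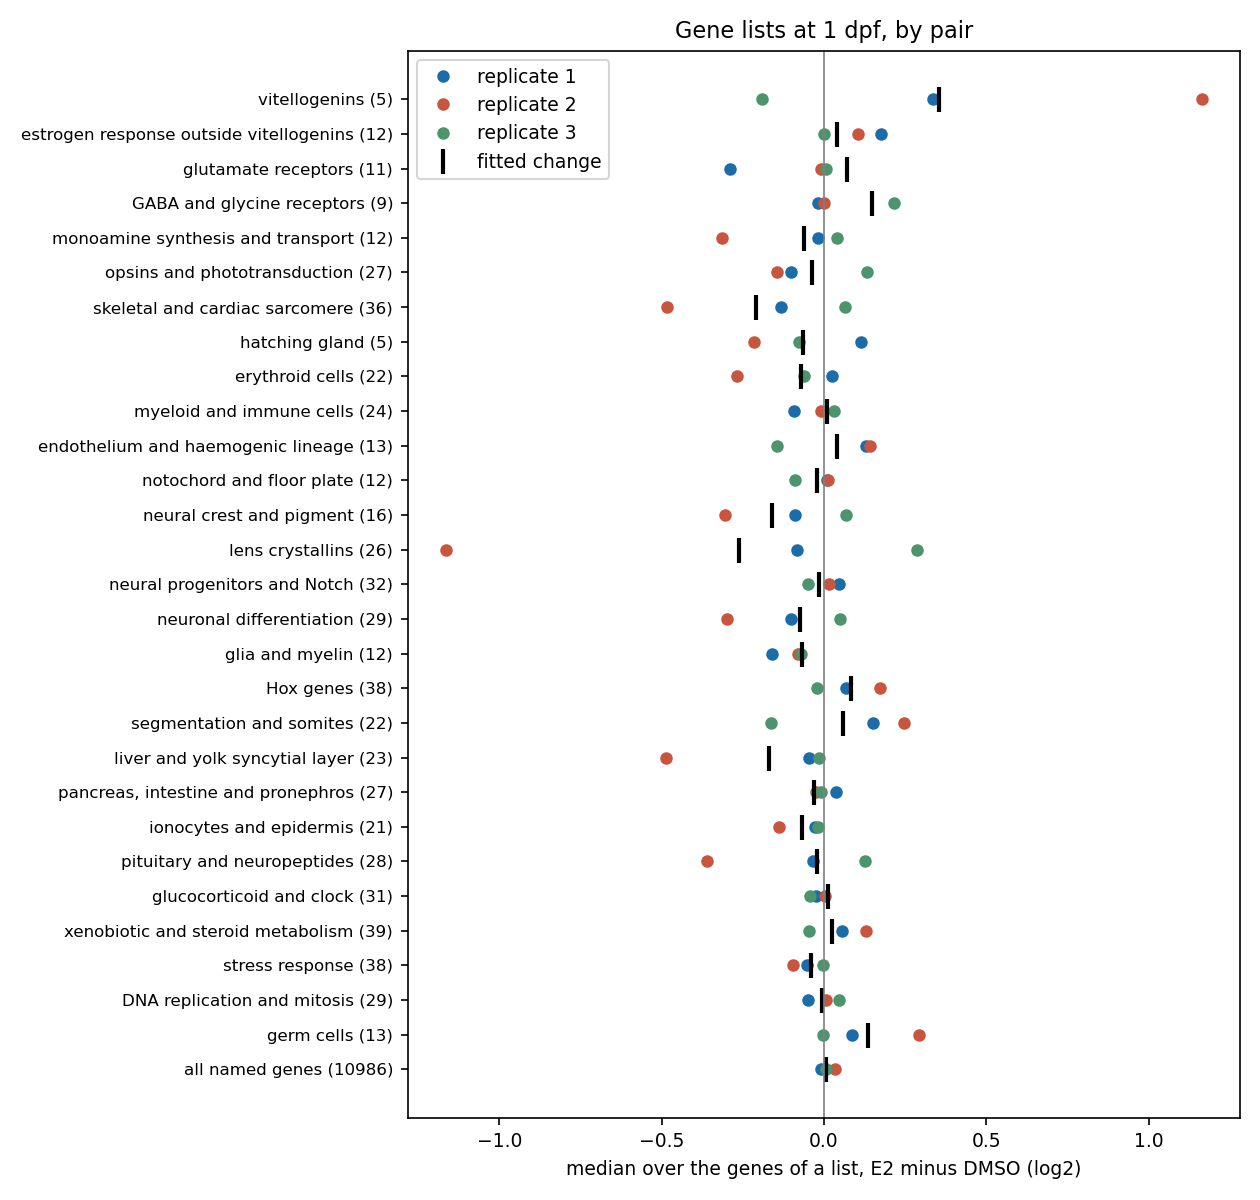
Median E2 minus DMSO log2 difference over the genes of each list at 1 dpf (horizontal axis), with the number of measured genes after its name. Coloured points give the median within each of the 3 replicate pairs and black bars the median of the fitted changes, and the lens list, at -0.08, -1.17 and 0.29 in pairs 1, 2 and 3, shows the widest spread of pairs among the 28 lists plotted.

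Genes that turn on or off between 1 and 2 dpf separated the pools by replicate number and set the E2 pool of pair 2 apart from its DMSO pool. Each 1 dpf pool was placed on the course from 1 to 2 dpf by probes that differed by over 2 on the log2 scale between the DMSO pools of these stages in the other replicates. There, 0% is the mean 1 dpf and 100% the mean 2 dpf DMSO level of those other replicates. The probes and the 0% point thus differ between replicate numbers, and positions compare directly only within a number. DMSO pools stood at -20.4%, 14.2% and 14.3%, and E2 pools at -23.8%, -3.89% and 18.1%. Both pools of replicate 1 thus read earlier than the mean of DMSO replicates 2 and 3. E2 replicate 2 read earlier than DMSO replicate 2 and lay near the mean of DMSO replicates 1 and 3. Within pairs, E2 minus DMSO over probes that are higher at 2 dpf was -4.75% of the course for pair 1, -24.8% for pair 2 and 3.38% for pair 3. Over probes that are lower at 2 dpf it was -2.24%, -11.4% and 4.24%. The pairs did not go the same way, and with 3 of them an exact two-sided test over pairs cannot reach 0.05. Treatment, embryo stage, slide and scan batch cannot be told apart in pair 2.

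The lens showed the same order of pools most widely. The gamma-crystallin gene crygmx, a structural protein of lens fibres, gave 5.52, 9.09 and 9.01 with DMSO and 4.94, 6.14 and 9.55 with E2. The gene crygmxl2 gave 3.22, 8.38 and 7.88 with DMSO and 2.13, 4.41 and 8.18 with E2. The lens water channel gene mipb gave 3.68, 6.91 and 6.82 with DMSO and 2.99, 3.79 and 7.45 with E2. In each of these 3 genes, replicate 1 was low in both groups and E2 replicate 2 was far below DMSO replicate 2. Of 12 lens genes above background that were higher at 2 dpf, 11 were lower with E2 in pair 1, 12 in pair 2 and 0 in pair 3, with median differences of -0.57, -2.10 and 0.38. In pools of whole embryos, fewer lens cells and less crystallin RNA in each cell cannot be told apart. Of 26 measured lens genes 0 passed the thresholds, against 0.537% of all named genes.

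Muscle and somite genes followed the same order, in opposite directions. The fast troponin T gene tnnt3b gave 9.04, 13.41 and 13.41 with DMSO and 8.86, 10.47 and 13.96 with E2. Of 9 sarcomere genes of this kind, 9 were lower with E2 in pairs 1 and 2 and 0 in pair 3. Over all 36 measured sarcomere genes, 7 were lower and 0 higher in 3 of 3 pairs, against 8.91% and 10.9% of all probes. The mesoderm factor tbx16, which is switched off as somite formation ends, gave 8.96, 7.81 and 7.67 with DMSO and 9.35, 9.22 and 7.40 with E2. The segmentation clock gene her7 gave 8.57, 7.26 and 6.90 with DMSO and 8.79, 8.19 and 6.39 with E2. Of 9 segmentation genes that are lower at 2 dpf, 8 were higher with E2 in pair 1, 7 in pair 2 and 0 in pair 3. None of 36 sarcomere and none of 22 segmentation genes passed the thresholds, against 0.537% of all named genes. With the position of each pool as a covariate, a fit chosen after seeing the data, 261 probes passed the thresholds, 149 of them among the 177, and the difference of vtg1 was 1.33.

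**Figure D4:**
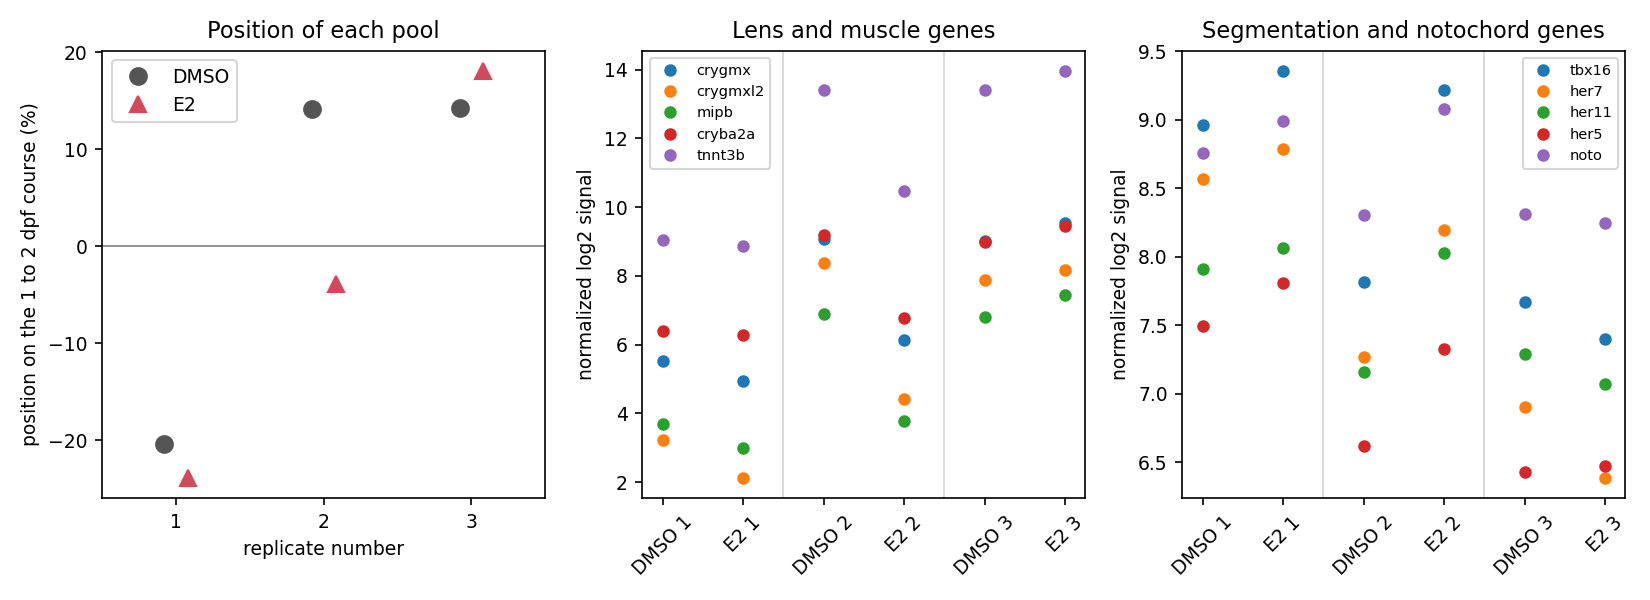
Left, position of each 1 dpf pool on the course from 1 to 2 dpf (vertical axis, %), with DMSO as circles and E2 as triangles; middle and right, normalized log2 signals of 5 lens and muscle genes and of 5 segmentation and notochord genes on each array, 1 point a gene and array. The replicate 1 pools of both groups and E2 replicate 2 read low for lens and muscle genes, as with crygmx at 5.52, 4.94 and 6.14 against 9.01 to 9.55 on the other arrays.

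Pair 2 also differed most across the array. Over the 27972 probes above background, the SD of the E2 minus DMSO difference was 0.25 in pair 1, 0.53 in pair 2 and 0.22 in pair 3. Among named genes, 8.19% differed by over 1 on the log2 scale in pair 2, against 2.84% in pair 1 and 2.46% in pair 3. Across these probes, which share the pools and are not independent, the differences of 2 pairs correlated by 0.03 (pairs 1 and 2), -0.10 (pairs 1 and 3) and -0.16 (pairs 2 and 3). Without replicate 2 of both groups, 183 probes passed the study thresholds, 55 of them among the 177, and vtg1 differed by 1.2.

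**Figure D5:**
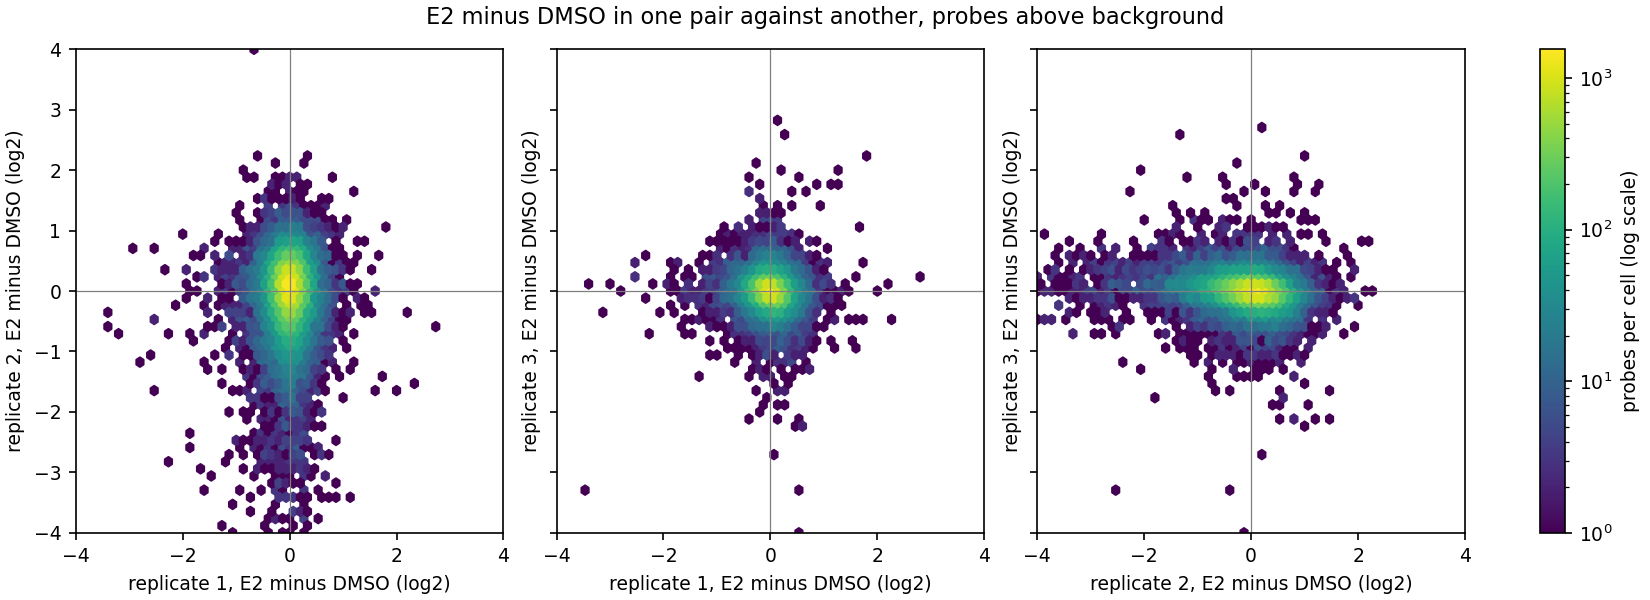
E2 minus DMSO log2 difference within 1 replicate pair against that within another, for the 27972 probes above background, with the colour of a cell giving its number of probes on a log scale. The axes end at ±4, which leaves 10 probes outside, and pair 2 is the widest, with a tail of probes lower with E2 (r = 0.03, -0.10 and -0.16 from left to right).

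The change at 1 dpf was smaller than the mean change of the 3 later stages for vtg1. It was also smaller for cyp19a1b, on probes that were not above background throughout either group at 1 dpf. The contrast of the 1 dpf change with the mean change at 2, 3 and 4 dpf passed an adjusted p of 0.05 for 11 probes (0.0252%). Of these, 3 were vtg1, 3 cyp19a1b, 1 vtg4, 1 f13a1a.1, a gene of the coagulation factor XIII A chain, and 3 had no gene name. The cyp19a1b, vtg4 and f13a1a.1 probes were not above background throughout either group of 1 dpf. The f13a1a.1 probe was above background on none of the 6 arrays, so that its change there was not measured. With only probes above background in a group tested, the contrast passed for 6. The change of vtg1 was 1.19 at 1 dpf and 1.46, 3.42 and 9.03 at 2, 3 and 4 dpf (limma, adjusted p 0.000117 for the contrast with their mean). For vtg4, whose probe was at background in both groups at 1 dpf so that no change was measured there, the fitted later changes were -0.07, 1.68 and 10.25. For the brightest probe of cyp19a1b, above background on 2 arrays of each group, the change of 0.64 at 1 dpf was followed by 2.60, 5.38 and 6.67. Without E2 replicate 1 the contrast passed for 20 probes, and without E2 replicate 3 for 30.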

How the data were processed

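Intensities were deposited by the authors as Agilent Feature Extraction files of 28 one-colour (Cy3) arrays, with background-subtracted processed signals. The file headers name Feature Extraction 10.7.3.1 and the submitters' processing notes 11.0.1.1. The authors' table of the series held the same processed signals (1226484 of 1226484 values equal) and was not used further. Control spots (1417 per array) and outlier spots were left out, spots of a probe were averaged, and log2 signals were quantile-normalized. Genes were named through RefSeq accessions (15163 of 19212 matched) and 558 probe names of the supplement. The supplement lists probes that the study found E2-altered at any of the 4 stages. Of the 80 called probes with a gene name, 46 were named this way. Shares of named genes that were called, such as 0.537%, therefore lean on the study's own calls. A limma 3.58.1 model (R 4.3.3) held 8 groups of all 28 arrays blocked on the replicate number (4 levels). At 1 dpf the pools of a number deviated together in all 3 pairs. Deviations from group means there correlated by 0.294 to 0.621 within numbers and by -0.460 to -0.0500 between numbers. Deviations from a mean sum to 0, which pulls the values between numbers below 0. Over all stages the values were 0.175 to 0.649 within and -0.460 to 0.450 between numbers, the highest of the latter at 3 and 4 dpf. P-values were adjusted over 43603 probes. Genes were named where the brightest probe was above background on all arrays of a group, passed the study thresholds in limma, and had the same sign in 3 of 3 pairs. Members, lists and the rule were chosen with earlier results of these data known. Of 849 listed gene names, 629 were measured. Alternatives, 19 in all, changed scaling, background correction (normexp on median signals, offset 50), filter, arrays, block and weights. The position covariate was chosen after seeing the data. Scripts were tested on simulated data. Precision is set by there being 3 arrays in a group. The study's own fold changes and p-values were not used.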

Additional observations from a re-analysis of the deposited data

Results flagged for a closer look

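The E2 change at 1 dpf differed from the mean change at 2, 3 and 4 dpf for vtg1 and cyp19a1b. For vtg1 the 1 dpf change was lower by a log2 difference of -3.45 (SE 0.33, limma, adjusted p 0.000117). For cyp19a1b the difference was -4.24 (SE 0.65, adjusted p 0.0143, limma). This cyp19a1b probe was above background on 2 of 3 arrays in each group of 1 dpf, so that its change there rests on signals near background. The fitted contrast of vtg4 was -4.04, but its probe was above background on none of the 6 arrays of 1 dpf, so that its 1 dpf change is not measured and the value is no difference between stages. Groups of 3 pools were too small for a test of single outlying samples.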

How the results depend on the processing

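The count of 177 probes past the study thresholds was 59 with 75th percentile scaling, 8 with normexp, 23 and 30 when only probes above background in a group or on 3 of 6 arrays were tested, and 280 without E2 replicate 1 of 3 dpf. With 75th percentile scaling 39.0% of the calls were higher with E2, with normexp 12.5%, against 49.2%. Without the replicate block it was 135, with 0 probes past the adjusted limit and 12 for the stage contrast. A fit of the 1 dpf arrays alone, in which the replicate number pairs the 1 dpf pools, gave 176 probes. Of these, 35 were among the 177, and 0 passed the adjusted limit. The adjusted count of 0 was 1 without E2 replicate 1 of 3 dpf, 1 with array weights and 3 without replicate 2 of both groups. The stage contrast count of 11 was 6 and 7 under the filters and 18 without E2 replicate 1 of 3 dpf. Leaving out single 1 dpf pools gave 145 to 605, 1 to 21 and 8 to 30 probes for these 3 counts. Some small differences changed sign. With normexp, col10a1a was -0.00264, esr1 0.0303, esr2b -0.0212 and vtg4 0.13. Without replicate 2 of both groups, esr1 was 0.11, esr2a 0.30, vtg2 -0.11 and vtg5 -0.13. With the slide as block esr2b was -0.0655 and vtg4 0.0618, with the position covariate esr2b was -0.0126 and vtg5 -0.0567, and vtg5 was -0.0148 with 75th percentile scaling and -0.0480 with array weights. Leaving out single pools gave -1.0 to 0.13 for esr1, -0.82 to 0.27 for esr2a, -0.0784 to 0.32 for esr2b, -0.15 to 0.79 for vtg2, -0.27 to 0.0817 for vtg4 and -0.15 to 0.25 for vtg5. The position of pair 1 over probes lower at 2 dpf was 0.0773% with a limit of 1. The cause of these changes was not tested. Signals near background limit what can be said of the 15631 dimmer probes.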

Other observations

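Of the 7 probes above background that were called higher with E2, 3 belonged to vtg1, 1 to the sodium channel gene scn4ba and 3 had no gene name. The following were chosen after their values were seen. The unnamed probe A_15_P227811 gave 3.79, 4.46 and 4.46 with DMSO and 5.06, 5.24 and 6.40 with E2, with all arrays above background and separated groups, a difference of 1.33 (SE 0.46). The unnamed probe A_15_P120629 gave 4.35, 4.08 and 3.80 with DMSO and 4.45, 5.04 and 4.95 with E2, a difference of 0.74 (SE 0.24). Probe A_15_P120419, also unnamed, gave 2.85, 4.17 and 3.07 with DMSO and 3.77, 5.06 and 4.85 with E2, and its change was lower at 1 dpf than at the later stages (limma, adjusted p 0.00219).

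The called probe of the heparan sulfatase gene sulf2b (A_15_P183291) gave 3.27, 3.46 and 4.24 with DMSO and 1.67, 0.50 and 3.82 with E2, 1 of them above background. A far brighter probe of sulf2b (A_15_P115760) gave 9.77, 9.88 and 9.69 with DMSO and 9.85, 9.61 and 9.62 with E2, so that the probes of this gene did not show the same difference. The same held for scn4ba, whose called probe (A_15_P603347) differed by 0.68 (SE 0.24) and whose brighter probe (A_15_P212681) differed by 0.08 (SE 0.23).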
